A study of Mus musculus with 28 samples.

Results

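The genes described here set, maintain or remove 5-methylcytosine in DNA: Dnmt1, Uhrf1, Uhrf2, Dnmt3a, Dnmt3b, Dnmt3l, Tet1, Tet2, Tet3 and Tdg. They were followed through the histone mark H3K27ac (acetylation of a lysine on histone H3, which marks promoters and enhancers in use) in mouse male germ cells. All peaks assigned to 1 of these 10 genes alone were taken, which gave 395 of 471458 peaks over 12 H3K27ac libraries. The tables, inputs included, hold 17923 labels of 1 gene alone, joint labels left out. Every member but Tdg had such a peak. A promoter was scored as called in a library where a peak lay within 1 kb of a start listed under the gene's symbol alone. Peaks listed under several genes at once were counted separately, and with them the total was 451.

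The cells were C57BL/6 testicular germ cells, either wild type (WT) or lacking Scml2 (Scml2-KO, written KO), a germline protein associated with Polycomb repression. Thy1+ and c-Kit+ spermatogonia came from testes at postnatal day 7, in WT and in KO. Pachytene spermatocytes (PS) and round spermatids (RS) came from adults, and their H3K27ac libraries were KO only, so that every comparison with a later stage below is between KO cells and changes age and cell type together. Each of the 6 groups had 2 libraries, and each of 8 groups (these and WT PS and RS) had 2 input libraries. Nothing in the labels ties a replicate to an animal, so p-values measure the spread between these libraries, which may be technical.

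DNA methylation is laid down by the de novo enzymes Dnmt3a and Dnmt3b with the catalytically inactive cofactor Dnmt3l, and is copied at replication by Dnmt1, which Uhrf1 brings to hemimethylated CpG sites. The TET dioxygenases oxidise 5-methylcytosine, and Tdg excises oxidised bases, after which base excision repair restores cytosine. In the male germ line, methylation is erased in primordial germ cells and rebuilt in fetal prospermatogonia, where Dnmt3l is required for imprints and for silencing of retrotransposons. Spermatogonia then divide with their methylation maintained, while spermatocytes and spermatids no longer replicate DNA after the premeiotic S phase.

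H3K27ac libraries held between 17877 and 73316 peaks each, more in the adult libraries, and the members had 20 to 49 peaks in each. None of the 16 inputs, with 359 to 1192 peaks each, had a peak assigned to a member. The value given for a peak is its fold enrichment as deposited, the height at its highest summit over a constant background in that library. Fold enrichment grows with depth, read depth was not given, and the background height, a relative measure of it, ran from 0.564 to 1.62. Thy1+ KO replicate 1 stood apart: the median of its log2 fold enrichment was 4.02, against 3.26 in replicate 2, over the regions shared by the Thy1+ libraries. None of 6 spermatid marker promoters was called in any of the 8 spermatogonial libraries, against 5 of 6 in each adult library. Of 6 spermatocyte markers, 6 were called in every adult library and 1 to 4 in spermatogonial libraries. Undifferentiated spermatogonial markers did not separate the groups, with 1 to 4 of 6 called in spermatogonia and 3 of 6 in adult libraries. Nanos2 and Ret were called in no library. Of 5 markers of differentiating spermatogonia, 0 to 3 were called in spermatogonial libraries and 2 to 5 in adult ones. Among them, the Kit promoter was called in the 4 c-Kit+ libraries, in 2 of the 4 Thy1+ libraries and in all 4 adult ones. Of 3 germ cell markers, 1 to 3 were called in spermatogonial libraries (summed fold enrichment 5.58 to 28.4) and 3 in each adult one (66.5 to 75.7). Promoters of Sertoli cell markers were called too, 1 to 5 of 6 in spermatogonial libraries and 3 to 5 of 6 in adult ones, with summed fold enrichments of 9.59 to 33.1 and 13.5 to 67.2. Of 3 peritubular myoid markers 0 to 3 were called in spermatogonial libraries (summed fold enrichment 0 to 23.3) and 1 in each adult one (3.05 to 5.08), and of 4 Leydig cell markers 0 to 3 (0 to 16.6) and 1 to 3 (4.30 to 25.1). Of 3 macrophage markers 0 to 1 and 0 to 2 were called, and of 3 endothelial markers 1 to 2 and 2. The part of these cells in the results was not tested.

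Promoters of 7 of the 10 genes were called in all 12 libraries: Dnmt1, Uhrf1, Uhrf2, Dnmt3a, Dnmt3b, Tet2 and Tet3. Of the 15692 promoter sites called in at least 1 library, 56.6% were called in all 12. That share counts sites and not genes, and leaves out sites called in no library, so it does not compare directly with 7 of 10. Among the listed member sites called in any library, only the second Dnmt3a start, called in 11, was not called in all 12. Tdg had no start listed under its symbol alone, because the tables list it with Gm9855. The starts of Tet1 and Dnmt3l that the tables list were called in no library, and the peaks of both genes lay elsewhere, as described with each gene.

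The sequences before 5 of these starts range from CpG-rich (Dnmt3b, Uhrf2, Tdg) to less so (Uhrf1 at its first start). In the 250 bases before the start these held 21, 23, 19 and 10 CpG sites. The second Uhrf1 start, in the same called promoter and not printed, had 30. They are from RefSeq, build GRCm38.p6, and run 5′ to 3′ on the gene's strand up to the outermost end RefSeq gives the gene. Capitals mark the GC box GGGCGG, the CCAAT box, the E-box CACGTG and the CRE TGACGTCA on either strand, each match counted even if it overlapped another.
Uhrf1, chr17:56303087-56303336, + strand: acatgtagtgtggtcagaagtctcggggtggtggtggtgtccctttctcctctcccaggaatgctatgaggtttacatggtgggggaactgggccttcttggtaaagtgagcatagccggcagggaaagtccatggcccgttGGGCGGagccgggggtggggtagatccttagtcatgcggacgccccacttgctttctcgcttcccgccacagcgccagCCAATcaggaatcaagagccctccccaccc
Uhrf2, chr19:30030263-30030429, + strand: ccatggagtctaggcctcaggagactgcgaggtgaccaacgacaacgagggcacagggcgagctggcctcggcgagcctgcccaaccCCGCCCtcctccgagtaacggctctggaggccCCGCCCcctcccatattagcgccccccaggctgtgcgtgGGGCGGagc
Dnmt3b, chr2:153649199-153649410, + strand: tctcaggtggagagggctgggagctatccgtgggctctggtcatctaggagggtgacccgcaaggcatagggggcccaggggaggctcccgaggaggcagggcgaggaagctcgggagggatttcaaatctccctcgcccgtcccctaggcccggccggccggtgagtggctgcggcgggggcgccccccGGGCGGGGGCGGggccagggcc
Tet1, chr10:62887470-62887574, - strand: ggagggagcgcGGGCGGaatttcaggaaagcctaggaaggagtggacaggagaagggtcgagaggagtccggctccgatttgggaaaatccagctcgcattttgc
Tdg, chr10:82629588-82629813, + strand: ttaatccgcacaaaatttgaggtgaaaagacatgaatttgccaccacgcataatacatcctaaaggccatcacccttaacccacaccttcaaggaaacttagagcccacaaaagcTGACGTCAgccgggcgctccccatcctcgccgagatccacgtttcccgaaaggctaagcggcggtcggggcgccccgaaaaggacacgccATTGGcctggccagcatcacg

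All 10 members matched the RefSeq promoter table, with 17 starts between them. In the 250 bases before a start, GGGCGG or its reverse complement occurred at 12 of the 17 member starts and at 32.7% of the 32851 starts in the table. CCAAT occurred at 6 of 17 and at 33.8% of all starts, CACGTG at 3 of 17 and at 6.02%, and TGACGTCA at 1 of 17, that of Tdg, and at 1.55%. The E2F-type motifs TTTCCCGC and TTTGGCGC were in no member window, against 0.895% and 0.417% of all starts. The Tet2 window held 51 CpG sites, more than 99.9% of the windows in the table, whose median was 6. The windows of Dnmt3a at its first start held 38 and 40, those of Dnmt1 at its called starts 26 and 7, and that of Tet1 15. The 3 Dnmt3l windows held 5, 4 and 3. These matches describe the letters only.

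**Figure D1:**
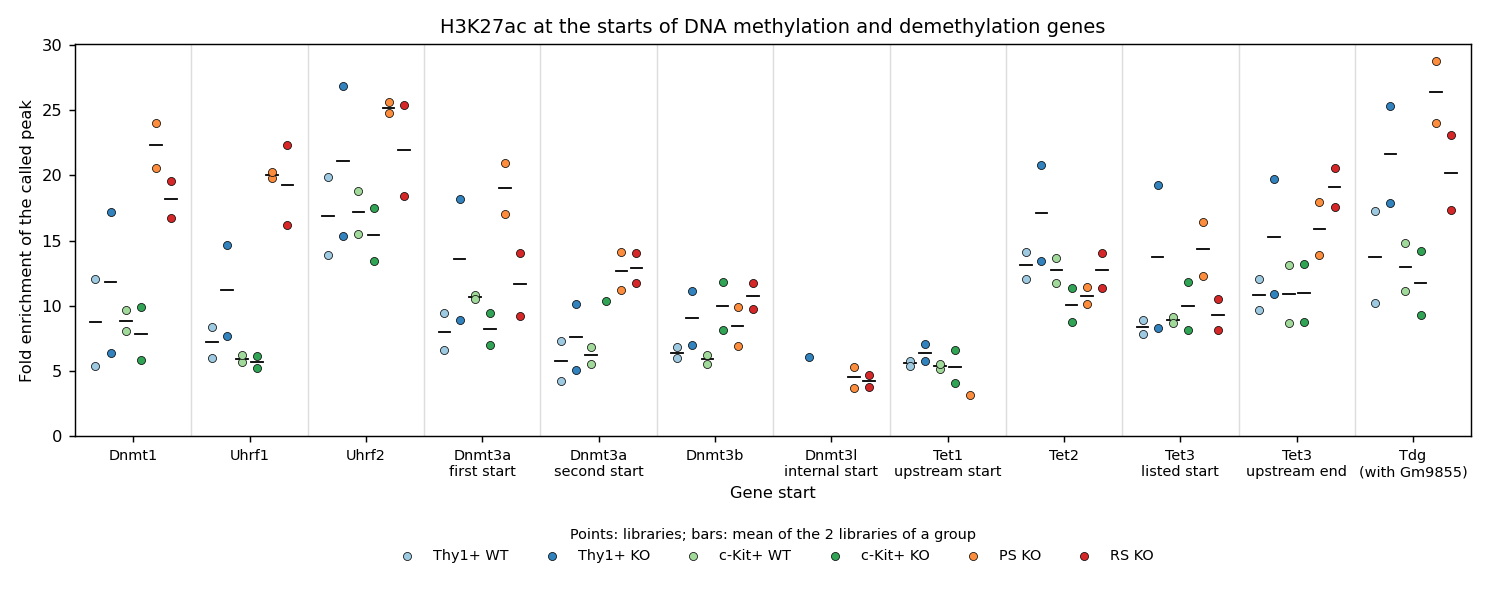
Fold enrichment of H3K27ac peaks at the starts of the member genes. The horizontal axis names the start and the vertical axis gives the deposited fold enrichment; each point is a library in which a peak was called, coloured by group, and bars are the mean of the 2 libraries of a group. Uhrf1 sits between 16.2 and 22.3 in the 4 adult libraries and between 5.25 and 14.7 in the 8 spermatogonial ones, while Tet1 has 1 adult point, at 3.20.

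Among the maintenance genes, Dnmt1 carried H3K27ac at its called starts (chr9, positions 20952623 and 20952979, - strand) in every library. Fold enrichment there was 12.1 and 5.43 in Thy1+ WT, 17.2 and 6.40 in Thy1+ KO, 9.69 and 8.06 in c-Kit+ WT, 9.93 and 5.83 in c-Kit+ KO, 20.6 and 24.0 in PS KO and 19.6 and 16.8 in RS KO, for replicates 1 and 2. Thy1+ KO replicate 1 was the only spermatogonial library in the range of the adult ones. The start farthest upstream, at position 20959888, from which RefSeq also starts a Dnmt1 transcript, was called in 0 of 12 libraries.

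Uhrf1, the hemimethylated-CpG reader that recruits Dnmt1, had 1 called promoter over 2 listed starts (chr17, positions 56303337 and 56304313, + strand). Its fold enrichment was 8.38 and 6.03 in Thy1+ WT, 14.7 and 7.67 in Thy1+ KO, 5.70 and 6.20 in c-Kit+ WT, 6.15 and 5.25 in c-Kit+ KO, 19.8 and 20.3 in PS KO and 22.3 and 16.2 in RS KO. All 4 adult values were above all 8 spermatogonial ones. The peak was also longer in adult cells, 2614 to 4143 bp against 232 to 2295 bp in spermatogonia, and its mean length in adult KO libraries was 3081 bp against 1122 bp in spermatogonial KO libraries. Peaks were longer in the adult libraries in general: over 9468 promoters the median ratio of adult to spermatogonial KO lengths, averaged on a log scale, was 1.75, and the ratio for Uhrf1 was 3.35, at percentile 91.3.

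Uhrf2, a paralog of Uhrf1, had the highest mean rank over the 12 libraries of the members called under their own symbol (chr19, position 30030513, + strand). Its fold enrichment was lowest in c-Kit+ KO replicate 2 (13.4), had a median of 18.6 over the 12 libraries and was highest in Thy1+ KO replicate 1 (26.8). Ranked among all promoters called in the same library, which sets depth aside in part, it lay between percentiles 74.9 and 93.8. The mean percentiles of the other promoters called in all 12 libraries were 61.0 for Tet2, 51.0 for Dnmt1, 50.1 for Dnmt3a at its first start, 46.7 for Tet3, 41.2 for Uhrf1 and 32.5 for Dnmt3b. Neighbours in this order from Tet2 to Dnmt3b differed by less than their SD over libraries, which was 11.9 to 21.5, whereas Uhrf2 (86.0 ± 6.76, SD, n = 12) stood further above Tet2 (61.0 ± 18.2). The order differed by stage, so these means describe no single stage: from spermatogonial to adult libraries the median percentile went from 74.7 to 39.4 for Tet2, from 49.3 to 69.9 for Dnmt1 and from 25.6 to 65.0 for Uhrf1. In PS KO the start shared by Tdg and Gm9855 (mean percentile 80.1) was above Uhrf2 (77.0).

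**Figure D2:**
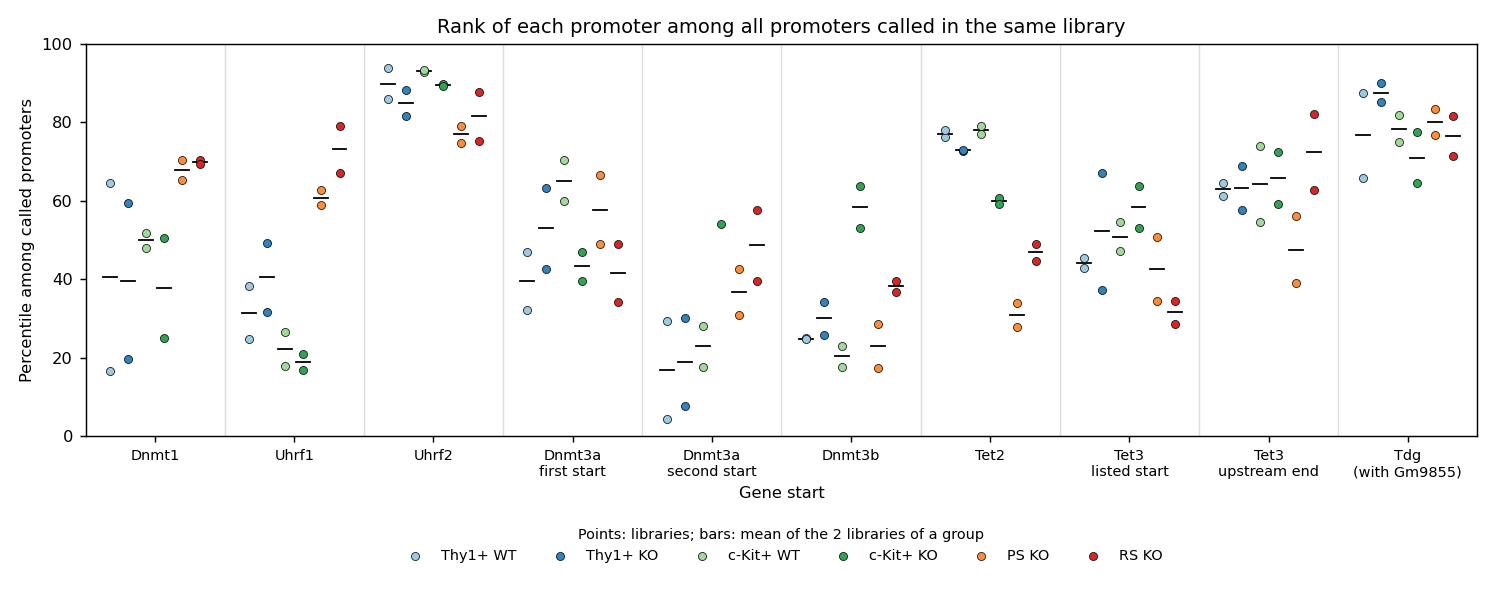
Rank of each called promoter among all promoters called in the same library. The vertical axis is the percentile (0 lowest, 100 highest); points are libraries, coloured by group, and bars are means of 2 libraries. Uhrf1 and Dnmt1 rank higher in the adult libraries than in the KO spermatogonia, and Tet2 ranks lower (27.8 to 49.1 against 59.2 to 73.1).

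Of the de novo genes, Dnmt3a had the most peaks of any member, 167 of the 395, of which 120 were classed as intronic. Its first start (chr12, positions 3806980 and 3807160, + strand), used by the long isoform, had fold enrichments of 9.43 and 6.64 in Thy1+ WT, 18.2 and 8.95 in Thy1+ KO, 10.8 and 10.5 in c-Kit+ WT, 9.46 and 7.00 in c-Kit+ KO, 21.0 and 17.1 in PS KO and 14.1 and 9.20 in RS KO. Both PS libraries exceeded both RS libraries there. The second start (position 3891744), used by the shorter Dnmt3a2, the germline isoform, was called in 11 of 12 libraries, all but c-Kit+ KO replicate 2. Its fold enrichment was 4.22 to 10.4 in the 7 spermatogonial libraries and 11.2 to 14.1 in the 4 adult ones, with no overlap, but its percentile among called promoters did overlap: it was 4.38 to 54.1 in the spermatogonial libraries, and in the adult ones it had a median of 41.2 and reached 57.8. The strongest peak at this start measured 159 to 1199 bp in spermatogonia and 2057 to 2464 bp in adult cells, with no overlap. Peaks were longer in adult libraries in general, and in Thy1+ WT replicate 1, for instance, the signal here was split into more than 1 peak. Since a peak at this start was missing in 1 library, the start did not enter the comparison of adult with spermatogonial cells.

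The remaining Dnmt3a peaks merged over the 12 libraries into 43 regions away from listed starts, and 28 of them were called in 1 library each, as were 58.1% of all 111089 such regions in the genome. A region in an intron at chr12:3887173-3887626 was called in all 4 adult libraries (fold enrichment 4.69 to 5.41) and in none of the 8 spermatogonial ones, as were 4.73% of all non-promoter regions. The other Dnmt3a regions called in both libraries of 1 group and in none of another lay at chr12:3811704-3811992, 3812260-3812803, 3815352-3816419 and 3894129-3895921, called mostly in adult cells, and at 3855045-3856705 and 3867725-3869339. Of these, 3855045-3856705 was missing in both Thy1+ WT libraries and was called in 5 spermatogonial and 4 adult libraries. The region 3867725-3869339 was missing in all 4 WT libraries and was called in 3 of the 4 KO spermatogonial libraries (4.26 to 5.57) and in 4 adult ones. The share of all regions with such calls is not given. WT libraries held fewer peaks than KO libraries of the same stage and replicate number: 19135 and 17877 against 34681 and 21286 in Thy1+, 29794 and 19638 against 36362 and 22949 in c-Kit+. The part of this in the calls was not tested.

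**Figure D3:**
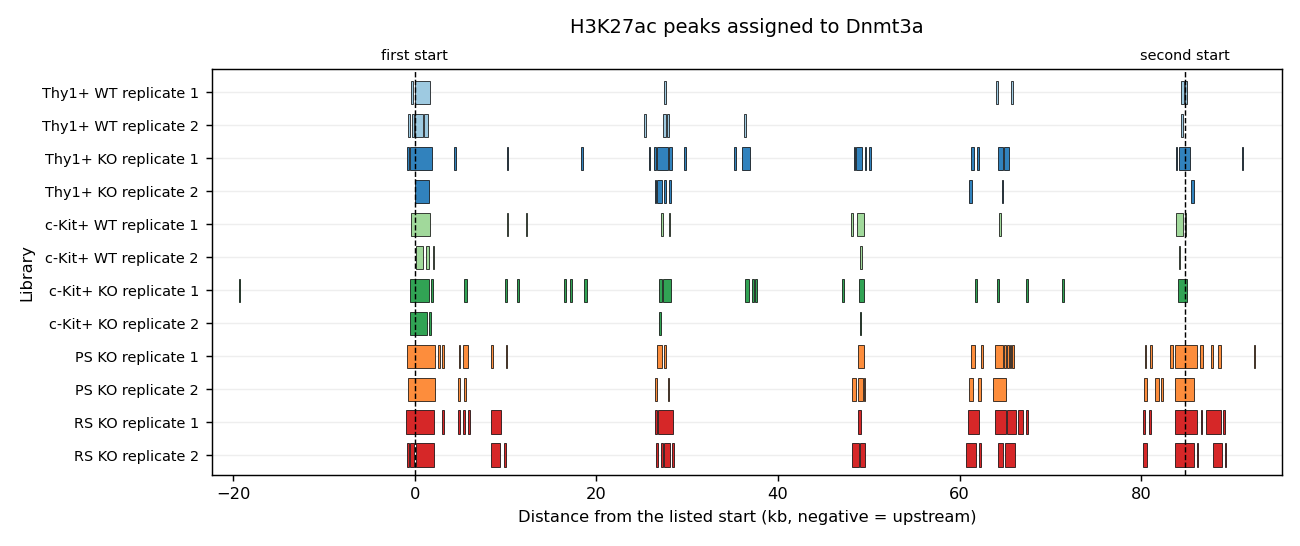
Peaks assigned to Dnmt3a, 1 row per library, against the distance in kb from the first listed start; dashed lines mark the first and the second start and colours mark the groups. Both starts carry peaks, and those at the second start are longest in the 4 adult rows (2057 to 2464 bp).

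Dnmt3b, the other catalytic de novo enzyme, had 14 peaks, 13 of them at its start (chr2, position 153649449, + strand). Fold enrichment was 6.81 and 6.03 in Thy1+ WT, 11.1 and 7.03 in Thy1+ KO, 6.27 and 5.58 in c-Kit+ WT, 11.8 and 8.16 in c-Kit+ KO, 9.91 and 6.93 in PS KO and 11.7 and 9.74 in RS KO. Both c-Kit+ KO libraries were above both c-Kit+ WT libraries, and the adult values overlapped those of the KO spermatogonia.

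Dnmt3l, the cofactor of the de novo enzymes, had 6 peaks, none at its listed starts (chr10, positions 78042287 and 78049842, + strand). They fell into 1 region, chr10:78054792-78055744, at an internal start that RefSeq gives at position 78055335. It was called in both PS libraries (fold enrichment 5.34 and 3.73), in both RS libraries (4.69 and 3.79) and in Thy1+ KO replicate 1 (6.08). These are among the lowest called values, at percentiles 1.94 to 12.5 of the promoters in their libraries. When each library was cut to its 17877 strongest peaks, the number of peaks in the smallest library, the region stayed called in 1 spermatogonial library and in 0 adult ones.

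Tet1, the first of the TET dioxygenases, was also without signal at the start the tables list (chr10, position 62880014, - strand). RefSeq places a Tet1 start 7310 bp upstream of it, at position 62887324, whose promoter letters are shown above. There the region chr10:62886042-62887548 was called in all 8 spermatogonial libraries, with fold enrichments of 5.76 and 5.43 in Thy1+ WT, 7.09 and 5.76 in Thy1+ KO, 5.13 and 5.58 in c-Kit+ WT and 6.62 and 4.08 in c-Kit+ KO. Of the adult libraries only PS KO replicate 2 had it, at 3.20, below every spermatogonial value. An intronic region of Tet1, chr10:62865048-62866150, behaved alike in its calls. It had fold enrichments of 4.34 to 7.57 in the 8 spermatogonial libraries and was called in 1 adult library, RS KO replicate 1, at 5.08.

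Among non-promoter regions, calls in all 8 spermatogonial libraries and at most 1 adult library were rare. They were found at 17 of 111089, which is 0.0153% of all and 1.33% of the 1275 called in every spermatogonial library. Of those 17, 2 were these Tet1 regions. The upstream one is in this set only because another Tet1 start is listed. What share of promoter sites had such calls is not given. With 17877 peaks in every library the upstream region was called in 8 spermatogonial and 0 adult libraries; with a stricter q (−log10 q of at least 5) it was called in 4 and 0. Tet1 had 3 further regions, each called in 1 adult library.

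**Figure D4:**
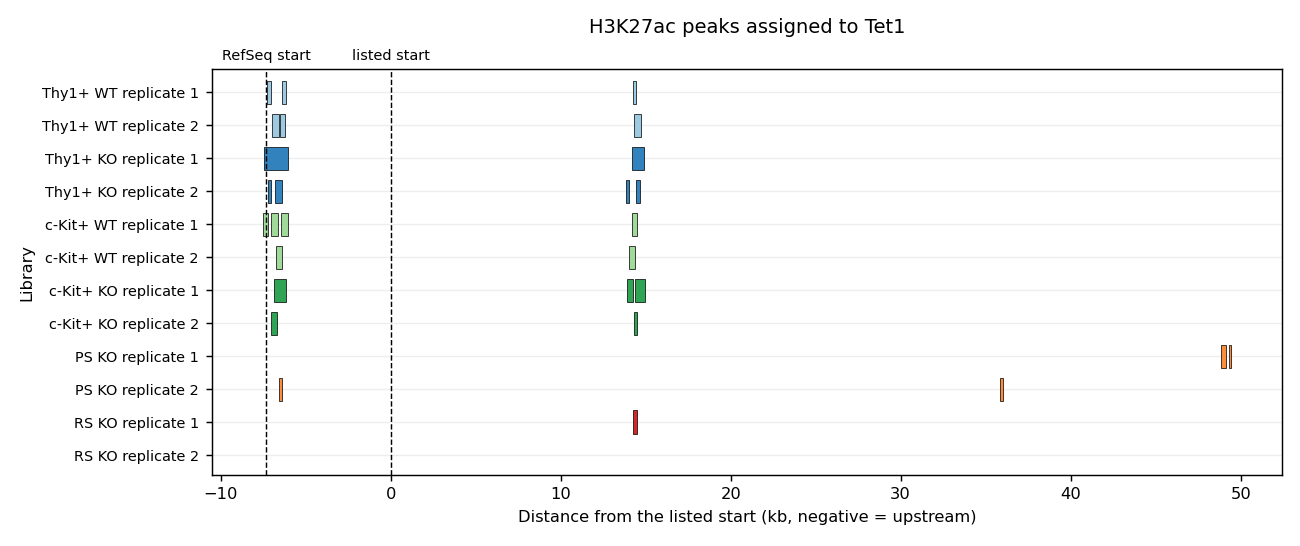
Peaks assigned to Tet1, 1 row per library, against the distance in kb from the listed start (negative values are upstream); dashed lines mark the start in the tables and the RefSeq start 7310 bp upstream. The 8 spermatogonial rows carry peaks at the RefSeq start and in an intron, and the 4 adult rows have 1 library with each.

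Tet2 had its signal at 1 start (chr3, position 133544390, - strand). Fold enrichment was 14.1 and 12.1 in Thy1+ WT, 20.8 and 13.4 in Thy1+ KO, 13.7 and 11.8 in c-Kit+ WT, 11.4 and 8.75 in c-Kit+ KO, 11.4 and 10.1 in PS KO and 14.1 and 11.4 in RS KO. On this scale the stages overlapped. In rank they did not: Tet2 lay between percentiles 59.2 and 79.0 of the called promoters in spermatogonia and between 27.8 and 49.1 in adult cells. Its peak kept its length, 1589 to 2406 bp, and the ratio of adult to spermatogonial KO lengths, 0.982, was at percentile 3.49 of all promoters.

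Tet3 was listed at position 83441678 on chr6 (- strand), where the peaks carried the joint name of Tet3 and B230319C09Rik and so are not among the 395. Fold enrichment there was 8.91 and 7.84 in Thy1+ WT, 19.2 and 8.31 in Thy1+ KO, 9.12 and 8.68 in c-Kit+ WT, 11.8 and 8.16 in c-Kit+ KO, 16.4 and 12.3 in PS KO and 10.6 and 8.11 in RS KO. A further region, chr6:83454938-83457649, lay at the end RefSeq gives the gene, 15530 bp upstream. Among non-promoter regions with a peak under a member's own symbol, it alone was called in all 12 libraries, as were 1.04% of all non-promoter regions. Its fold enrichment was 8.68 to 19.7 in spermatogonial and 13.9 to 20.6 in adult libraries. In 11 of the 12 libraries it was above the listed start, and in c-Kit+ WT replicate 2 both had 8.68.

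Tdg, the glycosylase that removes oxidised methylcytosine, had no peak under its own symbol. The peaks at its start (chr10, position 82629838) were listed jointly with Gm9855 and cannot be assigned to 1 of the 2. They were called in all 12 libraries, with fold enrichments of 9.33 to 25.3 in spermatogonia and 17.3 to 28.8 in adult cells, between percentiles 64.5 and 90.0 of the called promoters.

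The first question the design poses is whether loss of Scml2 changed H3K27ac at these genes. Changes were tested with limma on log2 fold enrichment of regions called in every library compared, after setting the median of each library to 0, so each change is relative to the median region; p-values were adjusted by the Benjamini-Hochberg method over all regions tested. No member promoter passed in Thy1+ cells (0 of 7, with 0.00923% of 10835 regions called, 1 region) or in c-Kit+ cells (0 of 7, with 0.0% of 11313). With both stages together 0 of 7 passed (0.0% of 9585). In the test for a genotype effect that differs between the stages, 0 of 7 passed as well (0.0% of 9585). At an unadjusted p under 0.05 the limma counts over all regions were 559, 543, 502 and 453, or 5.16%, 4.8%, 5.24% and 4.73%.

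In Thy1+ cells the 7 changes lay between -0.25 and 0.16. In c-Kit+ cells they lay between -0.47 and 0.66, and 2 had an unadjusted p under 0.05. Dnmt3b had a KO minus WT log2 difference of 0.66 (SE 0.22, adjusted p = 0.94 by limma), with both KO libraries above both WT libraries. Dnmt3a at its first start had -0.47 (SE 0.22, adjusted p = 0.94 by limma). On the centred scale the genotypes did not overlap at Dnmt3a, Dnmt1, Tet2 and Uhrf2 either, with KO lower. How many regions separate in this way with 2 libraries per group is not given. Since 0 of the 11313 regions passed in c-Kit+ cells, these separations are not read as changes. The corresponding differences between the stages were 0.71 (SE 0.30) for Dnmt3b and -0.64 (SE 0.31) for Dnmt3a, both with an adjusted p of 0.998 by limma. Tet1 at its upstream start, which is called in all spermatogonial libraries, had -0.34 (SE 0.23) in Thy1+ and -0.12 (SE 0.23) in c-Kit+ cells, with adjusted p of 0.98 and 0.97.

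Between c-Kit+ and Thy1+ cells no member promoter passed either. In WT 0 of 8 passed, with 0.216% of 10177 regions called, and in KO 0 of 7, with 0.0% of 11134 (1255, or 11.3%, at an unadjusted p under 0.05). Dnmt3a at its first start had a c-Kit+ minus Thy1+ difference of 0.49 in WT (SE 0.23, adjusted p = 0.49) and Dnmt3b 0.65 in KO (SE 0.21, adjusted p = 0.29).

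From c-Kit+ spermatogonia to pachytene spermatocytes, both KO, 3 of 7 member promoters passed, with 31.9% of 12501 regions called (6.83% higher, 25.1% lower). At an unadjusted p under 0.05 it was 5 of 7, and 42.2% of all regions. Uhrf1 rose by 0.74 on the log2 scale relative to the median region (SE 0.19, adjusted p = 0.0096), and its uncentred change was 1.82. Dnmt3b fell by 1.32 (SE 0.22, adjusted p = 0.00087) relative to the median region and by 0.24 without centring (adjusted p = 0.44). Tet2 fell by 0.97 (SE 0.19, adjusted p = 0.0024) relative to the median region, a direction that turned without centring (0.11, adjusted p = 0.73). As with Dnmt1, Tet3 and Uhrf2, which did not pass, the centred values of the PS and c-Kit+ libraries did not overlap for the 3 genes that passed. How many of the 12501 regions were without overlap is not given, so this does not set the members apart. Without c-Kit+ KO replicate 2 no region in the genome passed, and the adjusted p of the 3 genes rose to 0.075 to 0.077 while the changes were 0.87, -1.35 and -0.92. Where uncalled libraries took the lowest value of their library, so that more regions were tested, Dnmt3b and Tet2 lost their calls too (-1.01 and -0.66, adjusted p = 0.12 for each). The other promoters had differences of 0.47 for Dnmt1 (adjusted p = 0.10), -0.55 for Tet3 (0.065), -0.36 for Uhrf2 (0.16) and 0.14 for Dnmt3a (0.63). Without centring Dnmt1 (1.55), Dnmt3a (1.22) and Uhrf2 (0.72, adjusted p = 0.019, limma) passed as higher and Tet3 had 0.53 (adjusted p = 0.084), so that the directions of Uhrf2 and Tet3 turned.

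Between PS and RS, 0 of 8 member promoters passed, with 20.2% of 21329 regions called. At an unadjusted p under 0.05 there were 7283 regions (34.1%) and 2 of the 8 members. Dnmt3a at its first start had an RS minus PS difference of -0.54 (SE 0.22, adjusted p = 0.12), and Dnmt3b one of 0.56 (SE 0.23, adjusted p = 0.12). In both the centred values of the 2 groups did not overlap, but this was also so for Tet2, Tet3 and Uhrf1. The share of all regions without overlap is not given. Without centring Dnmt3a at its first start passed as lower in RS (-0.73, adjusted p = 0.035, limma), as did 3630 of 21329 regions, and no other member start passed.

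With the 4 adult and the 4 spermatogonial KO libraries, 5 of 7 member promoters passed, with 40.6% of 10287 regions called. In the higher direction it was 2 of 7 (12.8% of all regions) and in the lower direction 3 of 7 (27.8%). The fit without centring turned that split over, to 49.9% of regions higher and 1.2% lower, since the median log2 fold enrichment of the adult libraries was 3.76 to 4.30 and that of the spermatogonial KO libraries 2.92 to 4.02. Over the 7 promoters the median change was -0.27, against -0.12 over all regions.

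The pair that rose were the maintenance genes Uhrf1 and Dnmt1. Leaving out the centring moved every change up by the same amount, so a rise stayed a rise by construction. Uhrf1 changed by 0.65 (SE 0.13, adjusted p = 0.0011, limma), at percentile 96.1 of all changes, and by 1.33 without centring. Dnmt1 changed by 0.49 (SE 0.15, adjusted p = 0.019), at percentile 92.0, and by 1.17 without centring. In both genes all 4 adult libraries were above all 4 spermatogonial ones on the centred scale. The Dnmt1 call was lost in 5 of the 8 fits that left out a library, with adjusted p from 0.054 to 0.099, and held in the other 3; Uhrf1 held in all 8. With uncalled libraries at their lowest value Dnmt1 also lost its call (0.30, adjusted p = 0.25).

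The 3 that fell relative to the median region were Tet2, Dnmt3b and Tet3. Tet2 fell by 0.82 (SE 0.13, adjusted p = 0.00016), at percentile 7.57, with no overlap between the stages, and by 0.14 without centring (adjusted p = 0.63). Dnmt3b fell by 0.66 (SE 0.14, adjusted p = 0.0020) and Tet3 at its listed start by 0.64 (SE 0.15, adjusted p = 0.0034), both with overlapping libraries, and without centring neither direction held (0.01 and 0.04). All 3 calls held in each of the 8 fits that left out a library. Uhrf2 had -0.27 (adjusted p = 0.093), Dnmt3a at its first start -0.15 (0.42), the upstream Tet3 region -0.21 (0.27) and the shared Tdg start -0.13 (0.46). Without centring all 4 had the other direction, 0.40, 0.53, 0.46 and 0.55, and none passed (adjusted p = 0.16, 0.067, 0.11 and 0.055, limma).

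**Figure D5:**
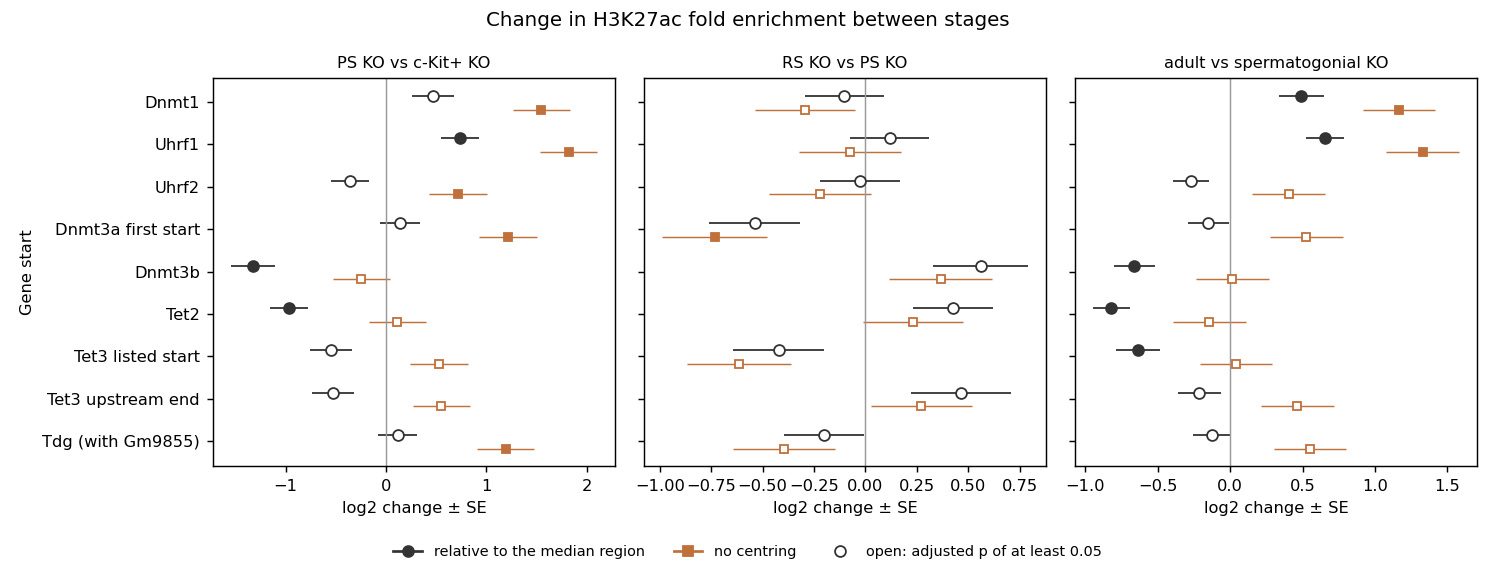
Log2 change in fold enrichment at the member starts in 3 comparisons of KO cells, with bars of ± SE. Circles are changes relative to the median region and squares the same fit without centring; filled symbols have an adjusted p under 0.05 by limma. Uhrf1 and Dnmt1 lie above 0 on both scales in the right-hand panel (0.65 and 0.49 centred), and Tet2, Dnmt3b and Tet3 lie below 0 relative to the median region and near 0 without centring (-0.14, 0.01 and 0.04).

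A list of 47 other genes of the pathway was treated the same way: cofactors of methylation, readers of methylated DNA, base excision repair, partners of the TET enzymes, and supply of S-adenosylmethionine, the methyl donor. Of the 46 with a start listed under 1 symbol, 40 had a promoter called in all 12 libraries and 2 in none. None of the 41 or 42 tested passed in a genotype comparison or between Thy1+ and c-Kit+ cells, and 0 of 42 passed between PS and RS. From c-Kit+ to PS cells 4 of 42 rose and 7 fell, with a median change of -0.14 against -0.04 over all 9964 gene promoters, of which 8.7% rose and 13.9% fell.

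Between adult and spermatogonial KO cells 5 of the 42 rose and 14 fell, while 14.5% of 9482 gene promoters rose and 22.9% fell. The median change of the list was -0.19 and that of all gene promoters -0.07. Mbd6, a methyl-CpG-binding-domain protein, rose by 0.80 (SE 0.13, adjusted p = 0.00021, limma), with fold enrichments of 5.25 to 17.7 in spermatogonial KO libraries and all 4 adult libraries above these, up to 32.0. Xrcc1, a scaffold of base excision repair, rose by 0.67 (SE 0.14, adjusted p = 0.0019), from 4.66 to 11.6 in spermatogonial KO to 14.1 to 22.7 in adult libraries. Ogt, the O-GlcNAc transferase that binds TET proteins, fell by 0.88 (SE 0.15, adjusted p = 0.00035) and Idh2, a source of the TET cofactor 2-oxoglutarate, by 0.74 (SE 0.13, adjusted p = 0.00032), both relative to the median region. Their deposited fold enrichments overlapped between the stages, 6.49 to 12.2 in adult and 7.67 to 15.7 in spermatogonial KO libraries for Ogt. By group, 4 of 7 TET partners, 5 of 13 methylation cofactors, 3 of 9 repair genes, 1 of 9 readers and 1 of 4 S-adenosylmethionine genes fell, and 0, 1, 2, 2 and 0 rose.

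Tet2 had the widest range of group means on the centred scale, 1.40, followed by Dnmt3b with 1.37. Over the 12 libraries the promoters whose centred values followed Tet2 most closely, among 8752 called in all, were Tcp11l1 (Pearson r = 0.977), Ets2 (0.969), Efs (0.964), Ets1 (0.964) and Tpm4 (0.960). The 12 points come from 6 groups and share the step between spermatogonial and adult libraries, so these values describe likeness only.

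Away from listed starts the members had 92 regions with a peak under their own symbol, 60 of them called in 1 library. Adult libraries alone held 41 and spermatogonial libraries alone 34, while of all non-promoter regions in the genome 67.9% were called in adult libraries alone and 17.9% in spermatogonial libraries alone. Uhrf1 had 3 regions called in both RS libraries and in no other library, all inside the gene downstream of its starts, at chr17:56306507-56306918, 56306931-56307242 and 56310369-56310695, with fold enrichments of 3.52 to 5.87. Uhrf2 had 1 of the same kind at chr19:30032814-30033284 (5.08 and 5.41), and Tet3 1 at chr6:83453533-83453888 (3.13 and 4.87). Of all non-promoter regions 6.46% were called in both RS libraries alone, against 5 of these 92. Tet3 introns held 2 more regions that varied by group, at chr6:83411542-83413694 and 83415811-83416858. An intronic region of Dnmt1, chr9:20943286-20944675, was called in 9 libraries, with values up to 8.01. It was called in neither Thy1+ WT library, and these held the fewest peaks. Not among the 92 was chr17:56287729-56292097, upstream of Uhrf1 and listed only under several genes at once. It was called in all 12 libraries, at 5.25 to 15.2.

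Per library, the members' share of peaks was smaller in adult cells: 0.0484% to 0.0711% against 0.0871% to 0.127% in spermatogonia. Among the 17877 strongest peaks of each library the members had 9 to 12 in adult cells and 16 to 23 in spermatogonia, without overlap. Peaks were longer in adult libraries, as given above, and the part of length in this share was not tested.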

How the data were processed

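H3K27ac ChIPmentation libraries (12, in 6 groups of 2) and 16 inputs were used as deposited peak tables. Bowtie, MACS2 and the build mm10 are named in the submitters' processing notes, without versions, and settings are not given in the sources used here. The authors' tables give for each summit a signal (pileup height), a fold enrichment, which is a ratio over background, and −log10 p and q values; per the file headers each peak also has a gene and a region class. By the values, fold enrichment is (height + 1) over (background + 1) with 1 background per library, so no input was subtracted. Peaks were called per library. mm10 is the UCSC name of GRCm38, whose RefSeq GRCm38.p6 tables gave further starts and sequences.

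For each peak the highest summit was kept. Peaks of the compared libraries were merged (overlap of at least 1 bp), and regions called in every library were tested with limma 3.58.1 (R 4.3.3) on median-centred log2 fold enrichment, with Benjamini-Hochberg adjustment and a threshold of 0.05; the procedure was tested on simulated data. Mitochondrial peaks were left out. Alternatives covered quantile normalization, no centring, strict peaks (−log10 q of at least 5), 50% overlap, imputed values for uncalled libraries, promoters as the unit, a replicate block and each library left out. All members were named; other genes followed fixed lists, at most 4 per comparison by size of change. Likeness used the member with the widest range of group means, and regions away from starts were named where called in both libraries of a group and none of another. The members and lists were chosen with earlier results of these data known. No genome was given, so sequences of peaks are not shown.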

Additional observations from a re-analysis of the deposited data

How the results depend on the processing

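Settings are compared by the number of regions with an adjusted p under 0.05. For Thy1+ KO against WT (1 region) the number was 0 with quantile normalization, without centring, with a replicate block and with gene promoters as the unit, 9 with strict peaks and 19 with imputed values. For c-Kit+ KO against WT (0) it was 1 with the block and 2 with gene promoters. For c-Kit+ against Thy1+ WT (22) it was 0 with quantile normalization and with strict peaks, 2 without centring, 121 with imputed values, 58 with the block, 9 with 50% overlap and 1 with gene promoters; in KO (0) it was 241 with imputed values and 47 with the block. For PS against c-Kit+ KO (3992) it was 784 with quantile normalization, 8940 without centring, 2013 with strict peaks and 2320 with gene promoters. For RS against PS KO (4309) it was 7022 with imputed values, 1982 with strict peaks and 1067 with gene promoters, and for adult against spermatogonial KO (4178) it was 12268 with imputed values.

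Leaving out 1 library gave 0 to 91 regions for Thy1+ KO against WT, 0 to 17 and 0 to 878 for c-Kit+ against Thy1+ in WT and KO, 0 to 4564 for PS against c-Kit+ KO, 0 to 3402 for RS against PS KO and 3165 to 4324 for adult against spermatogonial KO. The lowest values for the 2 comparisons with PS came without c-Kit+ KO replicate 2 and without PS KO replicate 2; where 1 library was left in a group, it was assumed to vary like the others.

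Without centring, an alternative chosen after seeing the data, 3 member changes that had passed turned: Tet2 from c-Kit+ to PS KO (0.11), and Dnmt3b and Tet3 between adult and spermatogonial KO (0.014 and 0.040). Changes that had not passed turned as well: Uhrf2 (0.72), Tet3 (0.53) and the upstream Tet3 region (0.55) from c-Kit+ to PS, Uhrf2 (0.40), Dnmt3a (0.53), the upstream Tet3 region (0.46) and the shared Tdg start (0.55) between adult and spermatogonial, and Uhrf1 and the internal Dnmt3l start (-0.08 each) from PS to RS. Replicate numbers are shared between groups only as labels: the correlation of same-numbered deviations was 0.17 for the Thy1+ genotypes and lower elsewhere, and with the replicate block no member call changed. With strict peaks 4 member genes in place of 7 had a promoter called in all 12 libraries and the members had 167 peaks in place of 395; with the 17877 strongest peaks per library they had 202. With RefSeq starts 8 genes were called, Tdg being added. With strict peaks Uhrf1 could not be tested between adult and spermatogonial or between PS and c-Kit+ cells. Dnmt1 in adult cells lost its call with imputed values, as did Dnmt3b and Tet2 from c-Kit+ to PS. Uhrf2 in adult cells passed as lower with imputed values (-0.47, adjusted p = 0.037, limma), as did 9887 of 26309 regions. The median change over those 26309 regions was -0.33.

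Depth was not given, and each group had 2 libraries: a change that did not pass is no sign that levels were alike.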
